A study of Mus musculus with 18 samples.

Results

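A set of 10 genes through which the liver takes up lipid was followed in 18 mouse livers. The genes were chosen by name from the 54532 genes of the expression table, and 10 of 10 were found. They are the fatty acid translocase Cd36, the lipases Lpl and Lipc, the lipoprotein receptors Vldlr and Lrp1, the fatty acid binding proteins Fabp1 and Fabp2, the fatty acid transport proteins Slc27a2 and Slc27a4, and the acyl-CoA synthetase Acsl1. The livers came from male C57BL/6J mice, bought at 6 weeks of age and kept for 1 week before the diets began, with 6 mice per group. Normal control mice (NC, CHOW in the deposited labels) ate a standard diet. HFD control mice (HFD) ate a high-fat diet, for 14 weeks and then on with saline. SZ-A mice (SZ in the labels) had the same high-fat diet before and during treatment with Ramulus Mori (Sangzhi) alkaloids, an extract of mulberry twig. Treatment lasted 6 weeks by the study's methods and 8 weeks by the deposited description, and the dose and route for the sequenced mice are not given in the sources used here. The mice were fasted overnight before the livers were taken. For the mouse NC6 the title and the deposited diet label disagree, the latter giving a high-fat diet, and the title was followed.

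Fatty acids reach a hepatocyte as free fatty acids bound to albumin, or inside lipoproteins. CD36 at the cell surface and the FATP family (Slc27a genes) move fatty acids across the membrane, acyl-CoA synthetases trap them as acyl-CoA, and FABP proteins carry them through the cytosol. Lipoprotein lipase and hepatic lipase free fatty acids from circulating triglyceride, while LRP1 and the VLDL receptor take up whole lipoprotein particles. The healthy adult liver makes little lipoprotein lipase and little VLDL receptor, and both are known to be higher in fatty liver, as is CD36.

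Values are FPKM, fragment counts scaled by gene length and library size, as deposited, and they can be compared between genes because they are per length. Each mouse had 17163191 to 20493907 fragments on genes. Tests were made with limma on log2(FPKM + 0.1) for the 10216 genes with a mean of at least 1 FPKM, and a call needed a fold change over 1.2 and an adjusted p under 0.05 (Benjamini-Hochberg, over all of these genes). Fold changes are on this log2(FPKM + 0.1) scale, which understates changes of genes near or under 1 FPKM. Of the members, 9 of 10 passed the filter, and Vldlr did not.

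Cd36, Lpl and Lrp1 were higher in HFD than in NC livers, and so was Vldlr, which was tested separately. Cd36 was lower in SZ-A than in HFD livers. The group means of the abundant carriers and activators Fabp1, Fabp2, Slc27a2 and Acsl1 differed by at most 1.38-fold for each gene. In HFD against NC, 3 of the 9 tested members were called, all higher, beside 20.2% of all tested genes called, 10.7% higher and 9.49% lower. SZ-A against HFD gave 1 call of 9, lower, beside 0.147% of all genes, 0.0783% higher and 0.0685% lower. In SZ-A against NC, 0 of 9 were called by limma and voom on fragments also called 0. Beside this, limma called 9.6% of all genes, 5.31% higher and 4.3% lower. At an unadjusted limma p under 0.05 there were 4 of the 9 members, and 2602 of the 10216 tested genes. Groups did not overlap for 2 of the 9 members in HFD against NC (10.5% of all genes), for 1 in SZ-A against HFD (1.28%) and for 0 in SZ-A against NC (5.5%). The median log2 fold change of the 9 members was 0.07, -0.03 and 0.25 in these comparisons, and that of all tested genes -0.03, 0.03 and -0.01. The balance of calls over all genes depended on the scaling of the libraries: 1092 genes were called higher and 970 lower in HFD against NC, but 2100 and 334 once the FPKM of each mouse were scaled to the same total, which moved the median of all genes to 0.15. For SZ-A against HFD the 8 higher and 7 lower became 10 and 206, with the median at -0.15.

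**Figure D1:**
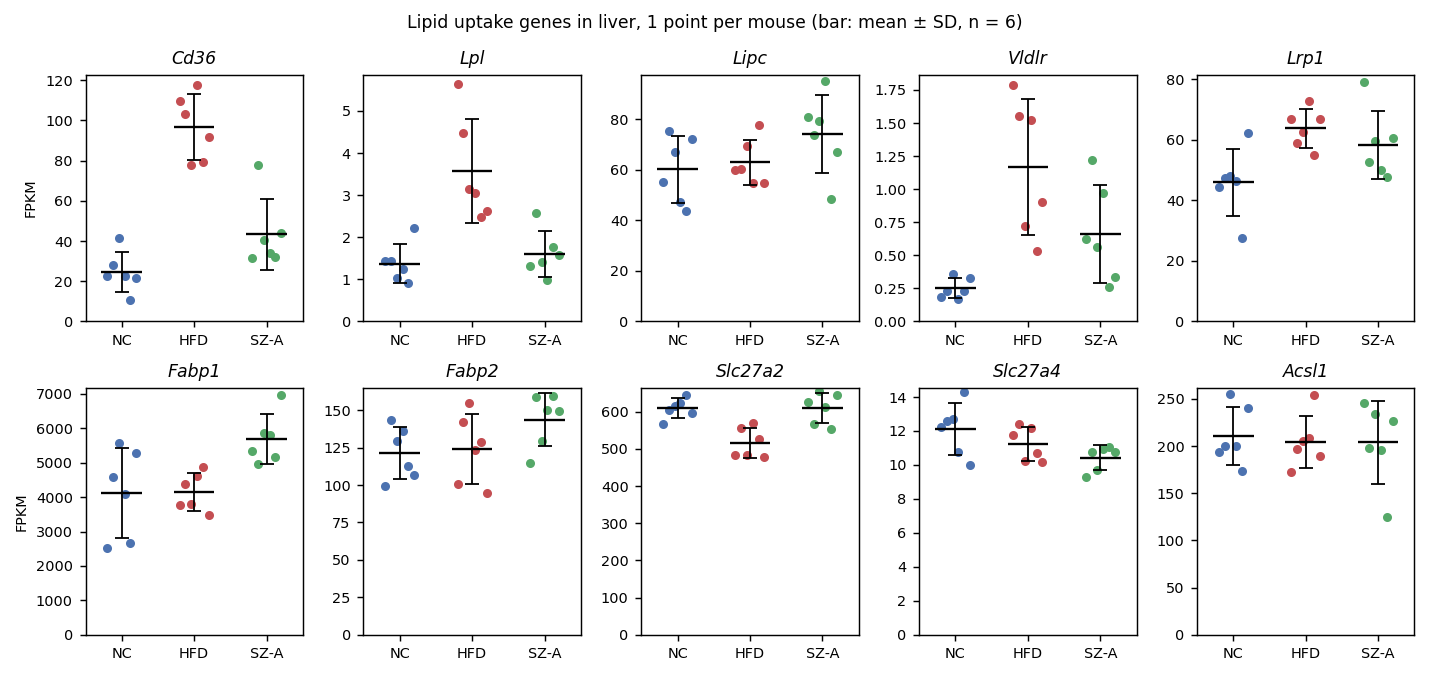
FPKM (vertical axes, from 0) of the 10 genes in NC, HFD and SZ-A livers, with 1 point per mouse and bars for the mean and SD of 6 mice. For Cd36, Lpl and Vldlr the HFD mice sit above all NC mice, and for Fabp1 the SZ-A mice sit above all HFD mice.

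In NC livers Fabp1 had the highest level, 4123 FPKM on average, followed by Slc27a2 at 609 FPKM, Acsl1 at 211 FPKM and Fabp2 at 121 FPKM, and the ranges of these neighbours did not overlap. Lipc (60.2 FPKM), Lrp1 (46.0 FPKM), Cd36 (24.6 FPKM) and Slc27a4 (12.1 FPKM) came next, each overlapping its neighbour. Lpl and Vldlr were lowest, at 1.37 and 0.250 FPKM. In HFD livers Cd36 moved from rank 7 to rank 5, above every value of Lrp1 and overlapping Fabp2. In SZ-A livers it stood at rank 7 again, overlapping Lrp1 but above every value of Slc27a4. The ranges of Lpl and Vldlr overlapped in SZ-A livers, and not in the other groups.

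Cd36 (ENSMUSG00000002944, GRCm38 chromosome 5, 17781690 to 17888801, minus strand) encodes the scavenger receptor that brings long-chain fatty acids and oxidized lipoproteins into cells. Its level in NC was 10.9 FPKM at the lowest, 22.6 at the median and 41.3 at the highest. In HFD these were 77.6, 97.6 and 117.5 FPKM. In SZ-A they were 31.7, 37.4 and 78.1 FPKM. Every HFD mouse was above every NC mouse, and 5 of the 6 SZ-A mice, at 31.7 to 43.8 FPKM, lay between the HFD range and the top of the NC range or within the latter. The remaining mouse, SZ-A2 at 78.1 FPKM, lay inside the HFD range, just above HFD3 at 77.6 FPKM. The means were 24.6 ± 9.95 for NC, 96.5 ± 16.4 for HFD and 43.4 ± 17.7 FPKM for SZ-A (SD, n = 6 each), so that HFD was 3.93-fold above NC and SZ-A was 0.449 of HFD. Cd36 rose in HFD against NC by a log2 fold change of 2.06 (SE 0.243, 95% confidence interval 1.53 to 2.58, limma adjusted p = 0.000163). It fell in SZ-A against HFD (log2 fold change -1.21, SE 0.203, interval -1.65 to -0.77, limma adjusted p = 0.0382). Between SZ-A and NC the log2 fold change was 0.84 (interval 0.23 to 1.46, limma adjusted p = 0.0816), which was not called, although all 6 SZ-A mice were above the NC mean.

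The call of Cd36 in SZ-A against HFD depended on single mice. Without SZ-A2 the log2 fold change was -1.40 and the limma adjusted p 0.00107. Leaving out in turn SZ-A6, SZ-A4, SZ-A3, SZ-A1 or the HFD mice 6, 4, 2 and 1 gave -1.23 to -1.14 and a limma adjusted p of 0.0632 to 0.116, so the call was lost. It was lost too with no filter on low values (limma adjusted p = 0.126). The fits that lost this call without a single mouse made 2 to 13 calls over all genes. With all mice there were 15, and without SZ-A2 there were 49. In SZ-A against NC, leaving out NC3, the highest NC mouse, gave a log2 fold change of 1.01 and a limma adjusted p of 0.041. The rise in HFD held without NC5, the lowest mouse (1.85), and without NC6 (2.04). Cd36 is among the genes the study selected from these same mice for display, so its direction is not independent evidence. The study also measured Cd36 mRNA in liver by RT-PCR and reported it significantly lower with SZ-A. Whether the sequenced mice were used for that measurement is not stated.

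The GRCm38 annotation gives Cd36 6 coding transcripts with 6 different starts, and the FPKM value sums over all of them. The study's own Cd36 primers for RT-PCR, shown here because they locate a stretch that all of these transcripts share, matched 6 of 6 coding transcripts and span 107 bases across adjacent exons. The forward primer lies at chr5:17820482-17820501 and the reverse primer at chr5:17814776-17814795, both in the minus-strand gene.
Cd36 forward primer: gatgacgtggcaaagaacag
Cd36 reverse primer: tcctcggggtcctgagttat

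Lipid-sensing PPAR receptors bind DNA with RXR at a pair of AGGTCA sites spaced by a single base, the DR1 element, and Cd36 and Fabp1 are both known targets of PPARs. The 250 bases before the RefSeq start of these genes are printed because Cd36 and Fabp1 had the largest differences between SZ-A and HFD among members that held such a match. The windows are chr5:17835897-17836146 on the minus strand for Cd36 and chr6:71199629-71199878 on the plus strand for Fabp1 (RefSeq, GRCm38.p6). Capitals mark the match to AGGTCANAGGTCA, read on the opposite strand, and, in Fabp1, a TATAAA box.
Cd36: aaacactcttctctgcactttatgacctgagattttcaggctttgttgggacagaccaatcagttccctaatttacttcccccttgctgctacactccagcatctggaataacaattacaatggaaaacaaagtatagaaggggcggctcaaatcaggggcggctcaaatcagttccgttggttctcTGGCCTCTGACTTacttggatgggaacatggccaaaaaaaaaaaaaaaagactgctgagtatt
Fabp1: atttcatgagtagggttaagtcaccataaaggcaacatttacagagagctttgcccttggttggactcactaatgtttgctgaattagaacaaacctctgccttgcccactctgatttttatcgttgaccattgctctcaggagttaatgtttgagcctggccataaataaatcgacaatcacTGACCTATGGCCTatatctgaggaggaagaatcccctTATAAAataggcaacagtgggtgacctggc
The Fabp1 match had 11 of the 12 fixed letters and lay 67 to 55 bases before the RefSeq start, with the TATAAA at 30 to 25 bases. That start lies inside the annotated gene span, which begins at 71199827, and so does the TATAAA. The Cd36 match had 10 of 12 and lay 63 to 51 bases before a start inside the annotated gene span. Windows were found for 9 of 10 members (12 windows, Lpl not among them). A match with up to 1 mismatch was in 0.484% of 32851 RefSeq windows and, among members, in Fabp1 alone. With up to 2 mismatches it was in 3.24% of windows, and in Cd36, Fabp1 and 1 of the Lipc windows. On both strands, AGGTCA alone was in 4 of the 12 member windows and 14.0% of all, TATAAA in 1 and 12.4%, GGGCGG in 7 and 32.7%, and CCAAT in 6 and 33.8%. AGGTCA is part of the longer element, and a match is a description of the letters only.

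**Figure D2:**
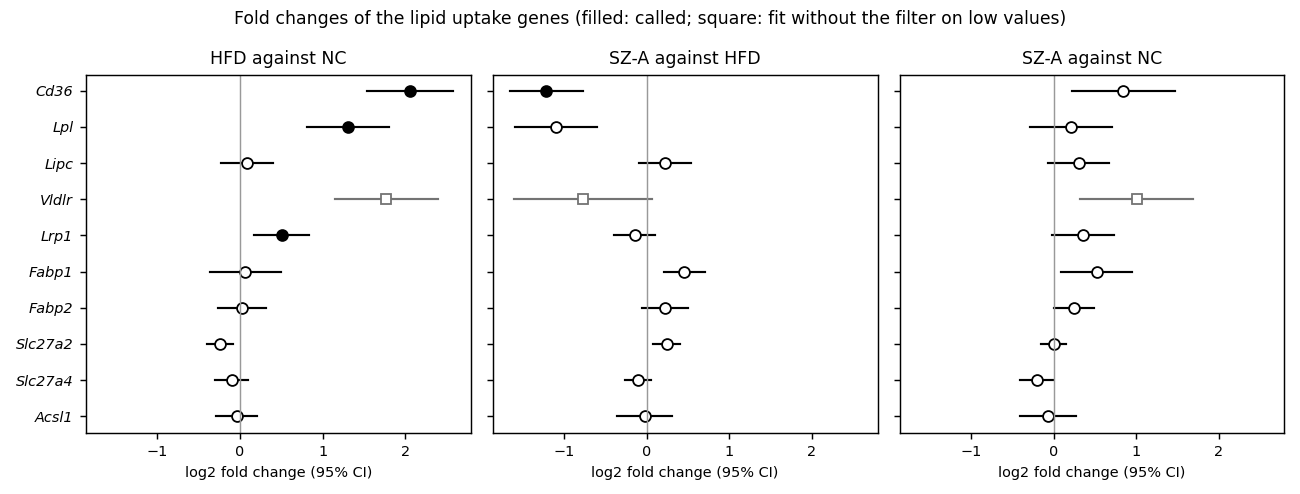
Log2 fold changes (horizontal axes, log2(FPKM + 0.1) scale) with 95% confidence intervals for the 10 genes in HFD against NC, SZ-A against HFD and SZ-A against NC. Filled circles were called: Cd36, Lpl and Lrp1 in the first comparison and Cd36 at -1.21 in the second; grey squares are Vldlr from the fit without the filter on low values.

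Lpl (ENSMUSG00000015568, chromosome 8, 68880491 to 68907448) encodes lipoprotein lipase, which frees fatty acids from chylomicrons and VLDL. Its level was 0.902, 1.34 and 2.21 FPKM in NC at the lowest, median and highest mouse. It was 2.48, 3.10 and 5.63 FPKM in HFD. It was 0.992, 1.502 and 2.58 FPKM in SZ-A. HFD and NC did not overlap, while a single SZ-A mouse, SZ-A2, reached into the low end of the HFD range. The means were 1.37 ± 0.464, 3.57 ± 1.23 and 1.61 ± 0.542 FPKM (SD, n = 6 each). Lpl rose in HFD against NC by a log2 fold change of 1.31 (SE 0.228, interval 0.82 to 1.80, limma adjusted p = 0.0017). In SZ-A against HFD the log2 fold change was -1.10 (SE 0.231, interval -1.60 to -0.60, limma adjusted p = 0.0865), which did not pass, and all 6 SZ-A mice were below the HFD mean. Without SZ-A2, also the highest SZ-A mouse for Cd36, the log2 fold change of Lpl was -1.24 and the limma adjusted p 0.0318, a call. Over all genes that fit made 49 calls, against 15 with all mice. Lpl was also called in this comparison with FPKM scaled to the same total (log2 fold change -1.27, limma adjusted p = 0.0367), with voom on plain library totals (adjusted p = 0.0494) and with sample weights (adjusted p = 0.023). Over all genes these fits made 216, 68 and 233 calls, with 206, 56 and 125 of them lower. Between SZ-A and NC the difference was 0.21 (interval -0.28 to 0.71, limma adjusted p = 0.618). NC6, whose labels disagree, was the highest NC mouse for Lpl, and without it the rise in HFD was 1.45.

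Lipc (ENSMUSG00000032207, chromosome 9, 70798128 to 70952226, minus strand) encodes hepatic lipase, which hepatocytes secrete and which acts on lipoprotein remnants and HDL. Its level was 43.8, 61.1 and 75.5 FPKM in NC at the lowest, median and highest mouse, 54.9, 60.2 and 77.7 FPKM in HFD, and 48.6, 76.6 and 95.2 FPKM in SZ-A. The groups overlapped in every comparison. The log2 fold change was 0.08 in HFD against NC (interval -0.23 to 0.40, limma adjusted p = 0.723). It was 0.22 in SZ-A against HFD (interval -0.10 to 0.53, limma adjusted p = 0.513). The intervals exclude a change as large as that of Lpl in HFD livers. The 3 annotated genes that overlap Lipc had means of at most 0.727 FPKM.

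Vldlr (ENSMUSG00000024924, chromosome 19, 27216484 to 27254231) encodes the VLDL receptor, which binds triglyceride-rich particles. It had the lowest level of the 10 genes, but its long transcript gave 33 to 66 fragments per NC mouse, 99 to 380 per HFD mouse and 46 to 244 per SZ-A mouse. In FPKM the lowest, median and highest mice were at 0.172, 0.230 and 0.357 in NC. They were at 0.531, 1.21 and 1.79 FPKM in HFD and at 0.261, 0.592 and 1.22 FPKM in SZ-A. Every HFD mouse was above every NC mouse, and SZ-A overlapped both groups, again with SZ-A2 highest. The mean was 4.67-fold higher in HFD than in NC (1.17 ± 0.517 against 0.250 ± 0.0751 FPKM, SD, n = 6 each). A two-sided exact permutation test of the means, chosen after it was seen that the filter left Vldlr out, gave p = 0.00216, the smallest that 924 splits allow, and 0.00648 adjusted over the 3 comparisons. In the limma fit without the filter the log2 fold change was 1.77 (SE 0.284, adjusted p = 0.00467). In SZ-A against HFD the mean was 0.567-fold (exact permutation p = 0.0823, adjusted p = 0.0823), and the limma fit without the filter gave a log2 fold change of -0.77 (interval -1.60 to 0.07, adjusted p = 0.539). In SZ-A against NC the mean was 2.65-fold higher (exact permutation p = 0.0108, adjusted p = 0.0162), while the fit across all genes without the filter did not call it (log2 fold change 1.004, limma adjusted p = 0.144).

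Lrp1 (ENSMUSG00000040249, chromosome 10, 127538161 to 127621148, minus strand) encodes the large receptor that clears remnants and many other ligands. Its lowest, median and highest values were 27.4, 46.8 and 62.2 FPKM in NC, 54.9, 64.7 and 72.7 FPKM in HFD, and 47.8, 56.0 and 79.0 FPKM in SZ-A. The overlap between HFD and NC came from 1 NC mouse, NC6 at 62.2 FPKM, whose title and diet label disagree. The other 5 NC mice, at 27.4 to 48.0 FPKM, were below every HFD mouse. Lrp1 rose in HFD against NC by a log2 fold change of 0.51 (SE 0.154, interval 0.17 to 0.84, limma adjusted p = 0.0338), and without NC6 by 0.60 (limma adjusted p = 0.0115). The call was lost without NC1, NC2, NC4, HFD1, HFD3, HFD4 or HFD6 in turn, with a log2 fold change of 0.47 to 0.52 and a limma adjusted p of 0.0513 to 0.0715, and with no filter on low values (limma adjusted p = 0.0886). In SZ-A against HFD the log2 fold change was -0.15 (interval -0.40 to 0.10, limma adjusted p = 0.597), and in SZ-A against NC 0.36 (interval -0.01 to 0.73, limma adjusted p = 0.212).

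Fabp1 (ENSMUSG00000054422, chromosome 6, 71199827 to 71205023) encodes liver fatty acid binding protein, the main cytosolic carrier of fatty acids in hepatocytes. It took from 0.135% of a mouse's fragments on genes, in NC1, to 0.387%, in SZ-A6. Its lowest, median and highest values were 2519, 4345 and 5581 FPKM in NC, 3492, 4095 and 4878 FPKM in HFD, and 4965, 5584 and 6954 FPKM in SZ-A. Every SZ-A mouse was above every HFD mouse, and the NC mice, which spread over both ranges, included the lowest values of all in NC1 and NC5 (2655 FPKM). The means were 4155 ± 551 FPKM in HFD and 5686 ± 717 FPKM in SZ-A (SD, n = 6 each), a 1.37-fold difference. The log2 fold change in SZ-A against HFD was 0.45 (SE 0.114, interval 0.21 to 0.70), with an unadjusted p of 0.00164 and a limma adjusted p of 0.105, so Fabp1 was not called, except with sample weights (log2 fold change 0.49, limma adjusted p = 0.0364). With FPKM rescaled to a common sum it was 0.28 (limma adjusted p = 0.127). Over all genes the fit with sample weights made 233 calls, against 15 in the main fit. In HFD against NC the log2 fold change was 0.07 (interval -0.37 to 0.50, limma adjusted p = 0.843) and in SZ-A against NC 0.52 (interval 0.09 to 0.95, limma adjusted p = 0.12).

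Fabp2 (ENSMUSG00000023057, chromosome 3, 122895072 to 122899506) encodes the fatty acid binding protein named for the intestine. It was found in every liver, at 99.5 to 143.5 FPKM in NC, 94.6 to 154.9 FPKM in HFD and 114.6 to 159.1 FPKM in SZ-A, and the groups overlapped. Its log2 fold change was 0.02 in HFD against NC (interval -0.27 to 0.31, limma adjusted p = 0.923) and 0.22 in SZ-A against HFD (interval -0.06 to 0.50, limma adjusted p = 0.449). The enterocyte markers Lct, Sis and Alpi were at 0 in every mouse, and the summed level of 6 enterocyte markers was at most 0.658 FPKM in a mouse.

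Slc27a2 (ENSMUSG00000027359, chromosome 2, 126552407 to 126588243) encodes FATP2, a transporter and very long-chain acyl-CoA synthetase of the liver. Its lowest, median and highest values were 568, 610 and 646 FPKM in NC, 479, 505 and 571 FPKM in HFD, and 553, 619 and 655 FPKM in SZ-A. All 6 HFD mice were below the NC mean and all 6 SZ-A mice were above the HFD mean, with an overlap at the edges in each case. The log2 fold change in HFD against NC was -0.24 (SE 0.075, interval -0.40 to -0.08, limma adjusted p = 0.0369), which passed the p threshold but stayed under a fold change of 1.2. It passed both without HFD4 (-0.27, limma adjusted p = 0.0321), and shrank to -0.05 with FPKM scaled to the same total (limma adjusted p = 0.712). In SZ-A against HFD it was 0.24 (SE 0.074, interval 0.08 to 0.40, limma adjusted p = 0.165), and 0.06 after the same rescaling. SZ-A and NC had means of 609.7 and 609.2 FPKM, with an interval of -0.16 to 0.15 for the log2 difference.

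Slc27a4 and Acsl1 were not called in any of the 3 comparisons. Slc27a4 (ENSMUSG00000059316, chromosome 2, 29802634 to 29817522), which encodes FATP4, was at 9.97 to 14.3 FPKM in NC, 10.2 to 12.4 FPKM in HFD and 9.29 to 11.1 FPKM in SZ-A. Its log2 fold change was -0.10 in HFD against NC (interval -0.30 to 0.10, limma adjusted p = 0.484), which turned to 0.09 with FPKM scaled to the same total. It was -0.11 in SZ-A against HFD (interval -0.26 to 0.05, limma adjusted p = 0.532), with all 6 SZ-A mice below the HFD mean, and -0.28 after the same scaling (limma adjusted p = 0.0899). It was -0.21 in SZ-A against NC (interval -0.40 to -0.01, limma adjusted p = 0.171), with all 6 SZ-A mice below the NC mean. Acsl1 (ENSMUSG00000018796, chromosome 8, 46471037 to 46536051), the main long-chain acyl-CoA synthetase of liver, was at 173.6 to 255.2 FPKM in NC, 172.2 to 254.3 FPKM in HFD and 124.3 to 246.1 FPKM in SZ-A. The lowest value was that of SZ-A5, which was also the lowest SZ-A mouse for Lipc, Vldlr, Lrp1 and Slc27a2. The log2 fold change of Acsl1 was -0.04 in HFD against NC (interval -0.29 to 0.20, limma adjusted p = 0.833), which turned to 0.15 with FPKM scaled to the same total, and -0.03 in SZ-A against HFD (interval -0.36 to 0.31, limma adjusted p = 0.957), which became -0.20 (limma adjusted p = 0.385).

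Within the groups the members did not move as 1 block. Over the deviations of the 18 mice from their group means, Pearson's r between Cd36 and Lpl was 0.43, between Lipc and Acsl1 0.70, between Fabp1 and Acsl1 0.55, and between Lrp1 and Slc27a4 -0.66. These are descriptions over mice whose values share library and depth. NC5 was the lowest NC mouse for Cd36, Lpl, Lipc, Lrp1 and Acsl1 and the highest for Slc27a2 and Slc27a4.

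Partners of the 10 genes were read from 4 lists of 61 genes, of which 53 were tested. In HFD against NC 7 were called higher and 9 lower, beside 10.7% and 9.49% of all tested genes. By limma 0 were called in SZ-A against HFD, beside 0.147% of all tested genes. Voom with median-ratio library sizes called 1 of the 53, and 32 of the 10216 tested genes. At an unadjusted limma p under 0.05 there were 11 of the 53, and 1515 of the 10216 tested genes. For SZ-A against NC 3 were called higher and 6 lower, beside 5.31% and 4.3%. The counts for single lists and for cell type markers stand beside the same shares. Among fatty acid carriers and activators, 1 of 11 tested genes was higher and 3 were lower in HFD against NC. Fabp4, the fatty acid binding protein of adipocytes and macrophages, rose from 1.40 ± 0.246 to 3.08 ± 1.18 FPKM (SD, n = 6 each; log2 fold change 1.02, limma adjusted p = 0.00526) and was at 1.96 ± 0.637 FPKM in SZ-A. Cav1, the caveolae protein, fell by 0.88 on the log2 scale (limma adjusted p = 0.0094), the mitochondrial and endoplasmic reticulum synthetase Acsl5 by 0.38 (limma adjusted p = 0.0174) and the acyl-CoA binding protein Dbi by 0.37 (limma adjusted p = 0.0268). Acsl4, which prefers arachidonic acid, was lower in SZ-A than in NC (7.18 against 11.9 FPKM, log2 fold change -0.72, limma adjusted p = 0.00553), and was not called in HFD against NC (-0.51, limma adjusted p = 0.0598). The liver transporter Slc27a5 was at 356 FPKM in NC, 364 FPKM in HFD and 394 FPKM in SZ-A, with no call.

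Of the lipase partners and inhibitors, 2 of 15 were called higher and 4 lower in HFD against NC, and 1 higher and 3 lower in SZ-A against NC. Angptl4, a secreted inhibitor of lipoprotein lipase, was at 99.2 ± 8.63 FPKM in NC, 63.3 ± 10.7 FPKM in HFD and 77.4 ± 12.5 FPKM in SZ-A (SD, n = 6 each). It fell in HFD against NC by 0.66 on the log2 scale (limma adjusted p = 0.0013) with no overlap of the groups. Apoa5, which aids the lipase, fell by 0.73 in HFD (limma adjusted p = 0.00197) and by 0.61 in SZ-A against NC (limma adjusted p = 0.00303). The lipase maturation factor Lmf1 rose in HFD (0.36, limma adjusted p = 0.0305). Gpihbp1, which anchors lipoprotein lipase to capillary endothelium, was at 8.36 FPKM in NC, 9.05 FPKM in HFD and 8.36 FPKM in SZ-A, with no call. Apoc2, the lipase's cofactor, was called lower in HFD and SZ-A than in NC (log2 fold changes -1.56 and -0.96, limma adjusted p = 0.00175 and 0.0399), but its span lies almost wholly inside that of the overlapping gene Gm44805 on the same strand, so its level of 2.72 FPKM in NC is uncertain.

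Of the lipoprotein receptors and adaptors, 0 of 13 were called higher and 2 lower in HFD against NC by limma. The proteoglycan Sdc1, which binds remnants, fell by 0.49 in HFD (limma adjusted p = 0.00786) and by 0.54 in SZ-A against NC (limma adjusted p = 0.0047). Lrp5, best known as a Wnt co-receptor, fell by 0.61 (limma adjusted p = 0.000615) and by 0.53 (limma adjusted p = 0.00459). The HDL receptor Scarb1 (24.9, 23.2 and 25.4 FPKM in NC, HFD and SZ-A) was not called. Of the nuclear receptors and regulators, 4 of 14 were called higher in HFD against NC and 0 lower. Pparg, a receptor that drives lipid storage, rose from 3.41 ± 0.911 to 5.94 ± 0.998 FPKM (log2 fold change 0.80, limma adjusted p = 0.00468) and was at 5.33 ± 1.66 FPKM in SZ-A. Srebf1, the regulator of fatty acid synthesis, rose by 1.53 (limma adjusted p = 0.00752), and the carbohydrate sensor Mlxipl by 0.59 (limma adjusted p = 0.0338). Srebf1 was at 20.9 FPKM in HFD and 22.4 FPKM in SZ-A, and was not called in SZ-A against NC (1.485, limma adjusted p = 0.0636). Mlxipl and the xenobiotic receptor Nr1i3 were higher in SZ-A than in NC (0.70 and 0.69, limma adjusted p = 0.0175 and 0.0274). Nr1i3 was called higher in HFD against NC too (0.38, limma adjusted p = 0.0326), a call kept in 19 of 25 alternatives. Ppara was at 48.0, 52.0 and 52.2 FPKM in NC, HFD and SZ-A, with no call. In HFD against NC the calls of Fabp4, Cav1, Lrp5, Angptl4, Apoa5, Pparg and Srebf1 held in each alternative fit that gave a value, which for Fabp4, Cav1 and Pparg leaves out the fit of genes averaging at least 5 FPKM. Those of Acsl5, Dbi and Sdc1 were lost with FPKM scaled to the same total (limma adjusted p of at most 0.326, 0.311 and 0.0931 over the alternatives). Voom on plain library totals also ended the calls of Acsl5 and Dbi. That of Dbi was lost too with no filter on low values and with the replicate block. Leaving out single mice ended the calls of Dbi (HFD3 and HFD6), Lmf1 (NC1, NC4 and HFD2 to HFD5; limma adjusted p at most 0.092) and Mlxipl (NC1 to NC4, HFD1 to HFD3 and HFD6; at most 0.0939). The call of Lmf1 was also lost with a pseudocount of 1 and with the replicate block, and that of Mlxipl with no filter. The call of Apoc2 in SZ-A against NC was kept in 13 of 24 alternatives, that of Angptl4 in 12 of 25, that of Lmf1 in 13 of 24 and that of Nr1i3 in 18 of 25 (limma adjusted p at most 0.127, 0.111, 0.105 and 0.094). Each was lost with no filter on low values and without several single mice, and those of Apoc2 and Angptl4 also with the replicate block.

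**Figure D3:**
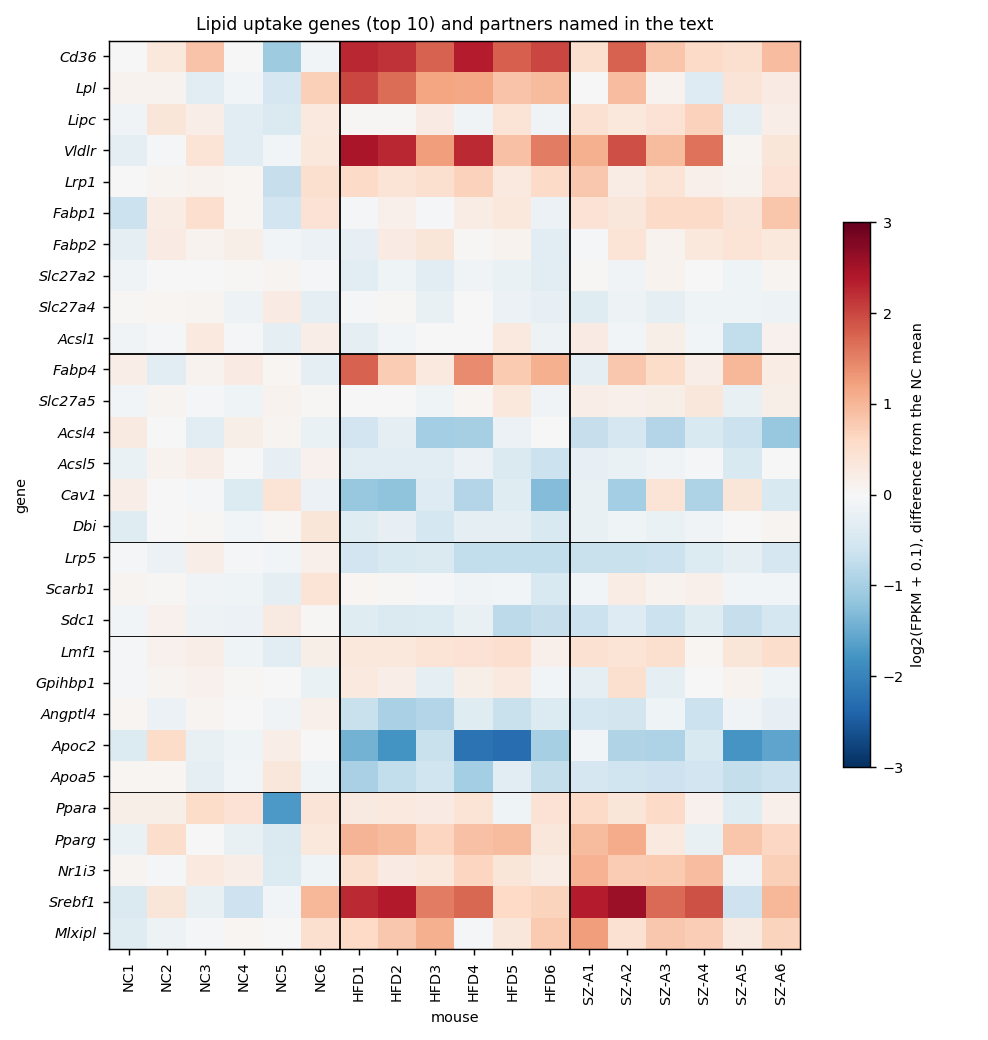
Difference of log2(FPKM + 0.1) from the NC mean (colour, red higher and blue lower) for each mouse (columns, split by group) and gene (rows, the 10 lipid uptake genes on top and partner genes in 4 lists below). Cd36, Lpl and Vldlr are red in all 6 HFD mice, and paler in most SZ-A mice, where SZ-A2 stands out for Cd36.

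Markers of other cell types moved with some of these genes, and in whole liver fewer cells of a type and less RNA per cell cannot be told apart. The hepatocyte markers were present in every mouse, and 3 of 8 were called lower in HFD against NC. Of 13 markers of Kupffer cells and macrophages, 11 were tested and 6 were called higher in HFD against NC, and the summed level of the 13 ranged from 213 to 382 FPKM in NC, 371 to 586 FPKM in HFD and 332 to 473 FPKM in SZ-A. Of the 11 tested, Cd68 alone was called in SZ-A against HFD, lower (14.3 ± 1.82 to 9.20 ± 1.44 FPKM, SD, n = 6 each, limma adjusted p = 0.0451). The 6 called higher in HFD against NC were Adgre1, Cd5l, C1qa, C1qb, Cd68 and Lyz2, and the 5 not called were Clec4f, Vsig4, Timd4, Marco and Csf1r. Trem2 and Gpnmb did not pass the filter and were not tested. Trem2 averaged 0.142 FPKM in NC, 1.16 FPKM in HFD and 0.529 FPKM in SZ-A. Gpnmb averaged 0.130, 2.355 and 0.351 FPKM, and the SZ-A and HFD ranges overlapped for both. Of 7 stellate cell markers 5 were called higher in HFD against NC, with sums of 56.2 to 68.1 FPKM in NC, 61.8 to 109.0 FPKM in HFD and 61.4 to 82.2 FPKM in SZ-A. Of 9 endothelial markers 1 was called higher, Lyve1, with sums of 64.0 to 78.8, 73.5 to 85.6 and 72.9 to 81.7 FPKM. The part of these cell types in the values of Cd36, Lpl, Vldlr and Fabp4 was not tested. Of 7 genes listed as adipocyte markers 2 were tested in HFD against NC, with Cfd called higher and Pck1 called lower (limma adjusted p = 0.00268 and 0.000253). Cfd was at 2.91 FPKM in NC, 52.4 FPKM in HFD and 7.5 FPKM in SZ-A. Pck1 was at 1167, 525 and 762 FPKM in these groups, far above the other listed genes, so it cannot serve as an adipocyte marker in whole liver. The others, Adipoq, Plin1, Lep, Retn and Adig, had group means of at most 0.202 FPKM. Muscle expresses Lpl strongly, and muscle markers summed to 33.5 FPKM in HFD3 and 9.11 FPKM in NC2 and were near 0 in most mice. Without HFD3 and without NC2 in turn the log2 fold change of Lpl in HFD against NC was 1.33. The part of muscle in the values of Lpl was not tested.

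**Figure D4:**
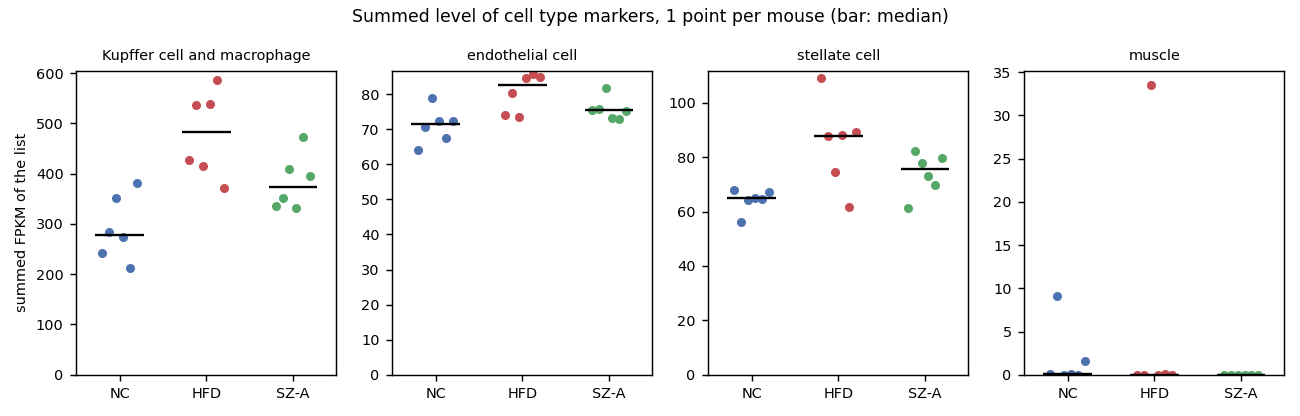
Summed FPKM (vertical axes, from 0) of marker lists of Kupffer cells and macrophages, endothelial cells, stellate cells and muscle, with 1 point per mouse and a bar at the group median. The macrophage sums are 213 to 382 in NC and 371 to 586 in HFD, and the muscle sum is highest in HFD3 at 33.5.

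The genes whose levels followed Cd36 most closely over the 18 mice were Lgals1 (Pearson's r of log2 values 0.957), Cd68 (0.918), Vav1 (0.916), Twsg1 (0.907) and Msn (0.906). For Lpl they were Cd84 (0.934), Col5a1 (0.933), Clec7a (0.930), Ubd (0.925) and Coro1a (0.922). These values hold the differences between groups as well. Over deviations from the group means, which leave those out, Qk (0.836), Lims1 (0.816), Sh3bgrl2 (0.812), Gng12 (0.807) and Atp6v1a (0.798) were closest to Cd36. Clec7a (0.926), Ermp1 (0.882), Sirpa (0.875), Coro1a (0.863) and Ubd (0.860) were closest to Lpl. The sets for Lpl shared Clec7a, Coro1a and Ubd, and the sets for Cd36 shared none.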

How the data were processed

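The authors selected poly-A RNA from liver, made libraries with a NEBNext Ultra kit, sequenced 150 bp paired ends on a NovaSeq and aligned them to GRCm38. The submitters' processing notes name HISAT2 2.0.5 and featureCounts 1.5.0-p3. The deposited table holds FPKM per gene for 18 mice, with gene length and position. The authors tested with DESeq2. Here limma on log2 FPKM, the unit as deposited, was the main test.

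FPKM times gene length gave whole fragments for 100.0% of values above 0 (within 0.05 of a fragment). They served for depth and for the voom alternatives, and DESeq2 was not run on them. The library size behind FPKM was 0.9325 to 1.1414 times the fragments on genes, and this ratio differed by group. Apart from HFD5 at 0.9983, every HFD mouse had a ratio of at least 1.0792. No NC mouse exceeded 1.0248, and no SZ-A mouse exceeded 1.0468. A higher ratio lowers all FPKM of a mouse, and the main test used FPKM without rescaling. The part of this ratio in the HFD comparisons was not tested apart from the alternative scalings. The 10 most abundant genes held 14.1% to 20.1% of the fragments on genes and mitochondrial genes 3.14% to 4.87%. No 2 mice of a group were duplicates (chi-square per degree of freedom at least 20.3).

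In R 4.3.3, limma 3.58.1 (lmFit, eBayes with trend) was fitted to log2(FPKM + 0.1) of genes that averaged 1 FPKM or more over all mice, each comparison on its own 12 mice, with Benjamini-Hochberg adjustment over all genes; the code was tested on simulated data. A permutation test was run with scipy 1.17.1. Python 3.11.15, numpy 2.4.6, pandas 2.3.3 and matplotlib 3.10.9 did the rest. Alternatives were pseudocounts, filters, scalings, fits, voom, a replicate block and leaving out each mouse. A voom fit on genes with a mean of at least 20 fragments and the permutation test of Vldlr were chosen after seeing the data. The members and lists were chosen with earlier results of these data known. The text names the 10 members, fixed partners (Scarb1, Pparg, Ppara, Angptl4, Gpihbp1, Fabp4 and Slc27a5), up to 3 called genes per list and direction with the largest change, and the 5 genes most like Cd36 and Lpl. Some genes that this rule covers are not reported here. Cell type markers outside that rule were named after their values were seen. Mice were numbered by their titles. Whether they shared a cage or litter is not given. The p-values set differences between groups against the spread between mice, and treat the mice as independent.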

Additional observations from a re-analysis of the deposited data

Results flagged for a closer look

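One value stood far from the rest of its group, Cd36 in the mouse SZ-A2. At 78.1 FPKM it was the highest of the 6 SZ-A mice, with the next at 43.8 FPKM, and its gap to that mouse was a larger share of the group's range than Dixon's test allows at 95%. The 10 genes in 3 groups were examined, and chance alone places about 1 in 20 groups beyond this value. SZ-A2 was also the highest SZ-A mouse for Lpl (2.58 FPKM) and Vldlr (1.22 FPKM), but not for Fabp1, where it was the lowest at 4965 FPKM. Without it the log2 fold change of Cd36 in SZ-A against HFD was -1.40 in place of -1.21.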

How the results depend on the processing

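In HFD against NC, 3 members were called and 2 to 4 under the 27 alternatives, and Cd36 (log2 fold change 1.84 to 2.25) and Lpl (0.93 to 1.53) were called in each that gave a value. Lpl gave none once genes with a mean under 5 FPKM were left out. Over the partner lists 16 genes were called, and 3 with a fold change over 2. In SZ-A against HFD the 1 member called became 0 with no filter, without the trend and with the replicate block, 2 with FPKM rescaled to a common sum or voom on plain library totals, 3 with sample weights, and 0 to 2 when single mice were left out. The 0 partner genes became 1 at a mean FPKM of at least 5, with sample weights and with voom on median-ratio library sizes, and 0 to 1 without single mice. In SZ-A against NC the 0 members became 1, Cd36, with all 18 mice in 1 fit and with the replicate block, and 0 to 1 without single mice. The 9 partner genes became 4 with no filter, 0 with a fold change over 2, and 5 to 10 without single mice. Over all genes the calls in HFD against NC numbered 2062 (371 with a fold change over 2, 2666 with sample weights). In SZ-A against HFD they numbered 15, and 0 with no filter or the replicate block. They became 216 with a common sum, 68 with voom on plain library totals and 233 with sample weights. At a mean FPKM of at least 5 they were 26 of 5183 genes. They were 32 with voom on median-ratio library sizes, and 2 to 49 when single mice were left out. In SZ-A against NC they numbered 981 (205 with a fold change over 2, 1682 with sample weights). They became 564 of 27266 with no filter, 1198 with all 18 mice in 1 fit and 601 to 1179 without single mice.

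Uncalled members changed sign as follows. In HFD against NC, sample weights gave Lipc -0.015, Fabp1 -0.117 and Fabp2 -0.008, a common sum gave Slc27a4 0.092 and Acsl1 0.153, and voom on plain library totals gave them 0.057 and 0.116. Leaving out single mice gave Lipc -0.002 to 0.155, Fabp1 -0.061 to 0.168, Fabp2 -0.044 to 0.098, Acsl1 -0.105 to 0.018. In SZ-A against HFD, sample weights gave Acsl1 0.098, and single mice -0.087 to 0.110. In SZ-A against NC, Slc27a2 was at 0.014 with a common sum, 0.002 with median-ratio scaling, 0.036 with sample weights, 0.001 and 0.043 with voom on median-ratio sizes and plain totals, and single mice gave Slc27a2 -0.022 to 0.027, Acsl1 -0.127 to 0.070.

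The deviations of same-numbered mice had correlations of -0.12 to 0.29, highest for SZ-A2 and HFD2. These cannot show whether mice were paired, since a shared cage or batch may touch few genes. The numbers were read as mouse numbers, not as pairs. With the replicate block the members called were 3 in HFD against NC, 0 in SZ-A against HFD and 1 in SZ-A against NC, and the partner genes 15, 0 and 8. Over all 10216 tested genes the calls with this block numbered 1647, 0 and 922. The cause of these shifts was not tested. Depth limits Vldlr most, with 33 fragments in the lowest mouse.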
